A study of Mus musculus with 6 samples.

Results

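Condensin and cohesin are ring-shaped complexes built around pairs of SMC ATPases, and the transcripts of 10 of their subunits were measured in the mouse cerebellum at postnatal day 1 (P1). Genes were taken by their symbols from a table of read counts for 54532 genes. Each of the 10 symbols matched a gene, and all 10 passed the filter on low counts. They comprised the 8 subunits of the condensins (*Smc2*, *Smc4*, *Ncapd2*, *Ncapd3*, *Ncapg*, *Ncapg2*, *Ncaph* and *Ncaph2*) and the SMC pair of cohesin (*Smc1a* and *Smc3*). Bulk poly-A RNA was sequenced from P1 cerebella, in 3 libraries from controls with the floxed *Tox3* allele and no Cre (Tox3f/f littermates) and in 3 libraries from mutants (Nestin-cre;Tox3f/f). *Tox3* encodes an HMG-box nuclear protein, and the Nestin-cre transgene recombines in the neural lineage from the embryo onward, so vessels, microglia and most meningeal cells are expected to keep the gene. The controls carried no Cre, so an effect of the transgene and one of the deletion cannot be told apart.

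Condensin packs chromatin into rod-shaped chromosomes at mitosis. Its 2 forms share *Smc2* and *Smc4* and differ in a HEAT-repeat pair and a kleisin: condensin I (*Ncapd2*, *Ncapg*, *Ncaph*) reaches chromosomes after the nuclear envelope opens, whereas condensin II (*Ncapd3*, *Ncapg2*, *Ncaph2*) is in the nucleus throughout the cycle. Cohesin holds sister chromatids together in dividing cells and also folds interphase chromatin into loops, so that post-mitotic neurons use it as well. At P1 the cerebellum holds granule neuron progenitors (GNPs) that divide in the external granule layer, beside post-mitotic neurons and glia.

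The total count per library lay between 15391854 and 17178478, and 17505 genes were tested. The count of *Tox3* spans the whole gene, not the floxed exon, and was 63.0 to 64.4 CPM (counts scaled by a normalized library total) in the controls and 55.3 to 63.2 CPM in the mutants (adjusted p = 0.25, edgeR), so it does not check the labels. Mutant and control therefore stand for the libraries so labelled. *Atoh1*, the transcription factor that specifies GNPs, was at 32.6, 32.0 and 30.9 CPM in control 1, 2 and 3 and at 0.577, 0.261 and 0.249 CPM in mutant 1, 2 and 3. Control 1, mutant 1 and mutant 3 held transcripts of Y-linked genes (a sum of 253.0, 203.5 and 207.0 CPM), whereas control 2, control 3 and mutant 2 held *Xist* (2419, 2147 and 1983 CPM). The groups thus differed in their balance of males and females. The main results for condensin and for the SMC pair of cohesin are also given within each kind of library. Choroid plexus transcripts varied between libraries, *Ttr* from 6.06 CPM in mutant 2 to 711 CPM in mutant 3.

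Every one of the 10 subunits was lower in the mutants, with no overlap between the groups, and condensin on average fell further than cohesin. *Ncaph2* fell by 22.2%, the least, and *Ncapg* fell by 49.5%, the most. All 10 had an adjusted p under 0.01 in the edgeR quasi-likelihood test, against 7.24% of all tested genes that were lower at that level, and 20.1% of tested genes were lower without overlap. With a fold threshold added (log2 fold change under -0.5), 7 of the 8 condensin subunits and 0 of the 2 cohesin subunits were called lower, against 3.63% of tested genes called lower and 3.03% called higher. The median log2 fold change was -0.65 over the 10 subunits and -0.68 over the 8 condensin subunits, whereas the median of all tested genes was -0.01. In a bulk sample, fewer dividing cells and less RNA per cell cannot be told apart.

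**Figure D1:**
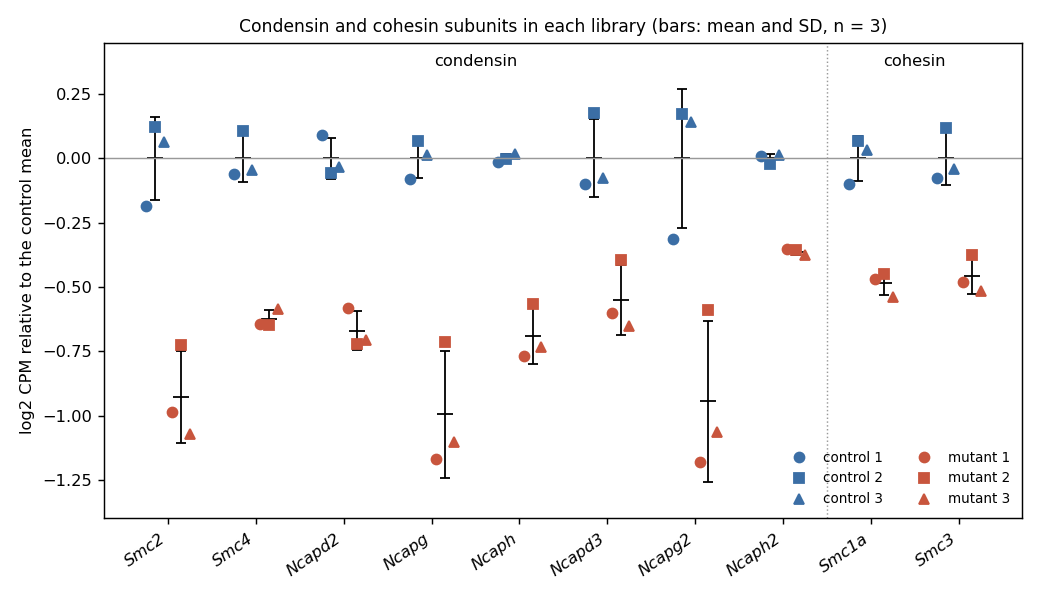
Level of each subunit (log2 CPM, relative to the mean of the 3 controls) in each library, with blue symbols for controls, red symbols for mutants, and bars for the mean and SD of 3 libraries. Every mutant point lies below every control point of its gene, from about the level of *Ncaph2* (log2 fold change -0.36) down to *Ncapg* (-0.98).

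*Smc2* and *Smc4*, the ATPase pair common to both condensins, both fell. *Smc2* (chromosome 4, 52439243 to 52488260 in GRCm38) was at 82.9, 103 and 98.6 CPM in the controls and at 47.6, 57.0 and 44.9 CPM in the mutants. It changed by -0.93 ± 0.10 on the log2 scale (standard error; n = 3 per group; adjusted p = 0.00022, edgeR), a fall of close to 1 log2 unit. The highest mutant library, mutant 2, remained below the lowest control, control 1. *Smc4* (chromosome 3, 69004738 to 69034623) was at 97.8, 110 and 98.7 CPM in the controls and at 65.3, 65.1 and 67.9 CPM in the mutants, with a spread among the mutants of only 1.56 CPM (SD). Its log2 fold change was -0.63 ± 0.06 (adjusted p = 9.7e-05, edgeR). The products form a heterodimer, and the ratio of their FPKM values (deposited by the authors, per length and library), which corrects for length, was 0.882 ± 0.072 (SD, n = 3) in controls and 0.718 ± 0.104 in mutants. The ranges of this ratio overlapped (exact permutation test, two-sided p = 0.2).

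The 3 subunits particular to condensin I were all called. *Ncapd2*, a HEAT-repeat subunit (chromosome 6, 125168007 to 125191701), was the most abundant of them, at 246, 222 and 226 CPM in the controls and 154, 140 and 142 CPM in the mutants. Its log2 fold change of -0.67 ± 0.06 had the smallest adjusted p of the 10 subunits (4.8e-05, edgeR). *Ncaph*, the kleisin that closes the ring (chromosome 2), varied least among controls, at 50.6, 51.0 and 51.8 CPM, and was at 30.0, 34.5 and 30.7 CPM in the mutants (log2 fold change -0.69 ± 0.08, adjusted p = 0.00022, edgeR). Of the 8 condensin genes it lay nearest to their mean profile over the 6 libraries, with a root mean square difference of 0.0473 log2 units.

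*Ncapg*, the second HEAT-repeat subunit of condensin I (chromosome 5, 45669919 to 45700546), was the least abundant member and fell the most. It was at 29.1, 32.2 and 31.1 CPM in the controls and at 13.7, 18.8 and 14.3 CPM in the mutants, a log2 fold change of -0.98 ± 0.12 (adjusted p = 0.00038, edgeR). Mutant 2 was the highest of the mutants here too. *Ncapg* shares 944 exonic bases with *Lcorl* on the opposite strand, and *Lcorl* had 638 to 890 counts per library against 230 or more for *Ncapg*. Whether reads were counted by strand is not given in the sources used here. How reads from the shared bases entered either count is therefore not known. *Lcorl* itself had a log2 fold change of -0.31 (adjusted p = 0.074, edgeR).

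Of the 3 subunits particular to condensin II, *Ncapd3* and *Ncapg2* were called and *Ncaph2* was not. *Ncapd3*, a HEAT-repeat subunit (chromosome 9), was at 55.1, 66.5 and 55.9 CPM in the controls and at 38.8, 44.8 and 37.5 CPM in the mutants (log2 fold change -0.55 ± 0.10, adjusted p = 0.0027, edgeR). *Ncapg2*, its HEAT-repeat partner (chromosome 12), was at 45.5, 63.7 and 62.3 CPM in the controls and at 25.0, 37.5 and 27.0 CPM in the mutants, with control 1 far below the other 2 controls. Its log2 fold change was -0.94 ± 0.17 (adjusted p = 0.0027, edgeR). In both genes the library with the highest value in its group lacked Y-linked transcripts.

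The calls of these 2 genes did not hold in every setting. DESeq2 called both, but limma on FPKM values called neither, which left 5 of the 8 condensin subunits called. The calls also did not hold under every removal of a single library. *Ncapd3* was no longer called without control 2 (log2 fold change -0.46, adjusted p = 0.010), without mutant 1 (-0.52, 0.012) or without mutant 3 (-0.50, 0.014). *Ncapg2* was no longer called without control 2 (-0.86, 0.014), control 3 (-0.87, 0.016), mutant 1 (-0.83, 0.011) or mutant 3 (-0.87, 0.015). With the level of Y-linked genes as a covariate, *Ncapg2* was called at -0.79 ± 0.07 (adjusted p = 7.2e-07, edgeR), whereas *Ncapd3* at -0.49 ± 0.08 no longer passed the fold threshold.

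*Ncaph2*, the kleisin of condensin II (chromosome 15), was the condensin gene that fell least. It was at 132, 129 and 132 CPM in the controls and at 103, 102 and 101 CPM in the mutants, the tightest pair of groups among the members. The log2 fold change of -0.36 ± 0.05 had an adjusted p of 0.00044 (edgeR) but did not reach the fold threshold. *Ncaph2* shares 829 exonic bases with *Sco2* and 535 with *Tymp*, both on the opposite strand. *Sco2* had 0 counts and *Tymp* 22 to 80, against at least 1572 for *Ncaph2*. Here too it is not known how reads from the shared bases entered these counts. The FPKM ratio of the 2 kleisins, *Ncaph* over *Ncaph2*, was 0.380 ± 0.0058 (SD, n = 3) in controls and 0.303 ± 0.0226 in mutants. These ratios did not overlap, and the exact permutation test gave p = 0.1, the smallest two-sided value that 3 against 3 allows (adjusted p = 0.35 over 7 ratios).

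The HEAT-repeat pairs, in contrast, gave ratios of condensin I to condensin II that overlapped between the groups. *Ncapd2* over *Ncapd3* was 4.97 ± 0.72 in controls and 4.57 ± 0.56 in mutants (exact permutation p = 0.5). *Ncapg* over *Ncapg2* was 0.771 ± 0.112 and 0.740 ± 0.034 (exact permutation p = 0.9). Averaged over the 3 particular subunits and relative to the control mean, condensin I stood at -0.84, -0.67 and -0.85 in mutant 1, 2 and 3 on the log2 scale, and condensin II at -0.71, -0.45 and -0.70. The difference between them was -0.13, -0.22 and -0.15 in the mutants, but it ranged from -0.11 to 0.13 in the controls. The 2 condensins were thus separated in the mutants by about as much as the controls differed from each other. Without control 1 the mean difference of the fit moved from -0.16 to -0.10.

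The SMC pair of cohesin fell together and by less. *Smc1a*, which lies on chromosome X (152016428 onward on the plus strand), was at 175, 196 and 192 CPM in the controls and at 136, 137 and 129 CPM in the mutants. Its log2 fold change was -0.49 ± 0.06 (adjusted p = 0.00026, edgeR), just short of the fold threshold. *Smc3* (chromosome 19) was at 152, 174 and 156 CPM in the controls and at 115, 123 and 112 CPM in the mutants, a log2 fold change of -0.46 ± 0.06 (adjusted p = 0.00076, edgeR). The FPKM ratio of *Smc1a* to *Smc3* was 1.12 ± 0.05 in controls and 1.10 ± 0.03 in mutants, with overlapping ranges (exact permutation p = 0.6). *Smc1a* was called without control 1 (-0.53), the control with the lowest *Smc1a* value.

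Because *Smc1a* is X-linked, libraries of one kind were also compared with each other. In libraries with Y-linked transcripts (control 1 against mutants 1 and 3) its log2 ratio was -0.40, and in those without (controls 2 and 3 against mutant 2) it was -0.50. With Y-linked genes as a covariate the log2 fold change was -0.45 ± 0.05. For *Smc3* the same values were -0.42, -0.42 and -0.42 ± 0.05.

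The remaining subunits of mitotic cohesin moved in the same way as its SMC pair. *Rad21*, the kleisin, was at 362, 375 and 332 CPM in the controls and at 285, 280 and 278 CPM in the mutants (log2 fold change -0.34, adjusted p = 0.0013, edgeR). *Stag1* and *Stag2*, alternative subunits that bind *Rad21*, had log2 fold changes of -0.45 (adjusted p = 0.0082) and -0.43 (adjusted p = 0.0024). Of the 5 cohesin subunits, 0 were called by edgeR, by DESeq2 or by limma on FPKM values. All 5 were nonetheless lower at an unadjusted edgeR p under 0.05, at an adjusted p under 0.01 and without overlap between the groups. The shares of all tested genes that were so were 19.0%, 7.24% and 20.1%. Without control 1, *Smc1a* and *Stag1* were called, and without mutant 2, *Stag1* was.

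Relative to the control mean, the 8 condensin subunits averaged -0.79, -0.59 and -0.79 in mutant 1, 2 and 3 on the log2 scale, and *Smc1a* and *Smc3* averaged -0.47, -0.41 and -0.53. Condensin was therefore lower than cohesin by 3 values of the same sign, -0.31, -0.18 and -0.26, a mean of -0.25 ± 0.07 (SD, n = 3). In the controls this difference lay between -0.02 and 0.02. With all 5 cohesin subunits it was -0.32, -0.25 and -0.29 in the mutants, and -0.02 to 0.04 in the controls. These scores carry no p-value, since the genes were chosen with earlier results known. The difference was -0.29 among libraries with Y-linked transcripts and -0.17 among those without. *Smc2* over *Smc3*, in FPKM, was 0.596 ± 0.044 in controls and 0.430 ± 0.033 in mutants with no overlap (exact permutation p = 0.1, adjusted p = 0.35 over 7 ratios). *Smc4* over *Smc1a* was 0.602 ± 0.028 and 0.547 ± 0.031, with overlap (exact permutation p = 0.2).

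Library by library, mutant 2 was the highest mutant for 7 of the 10 subunits and control 1 the lowest control for 8. Mutant 2 was the mutant library without Y-linked transcripts, and control 1 the control library with them. The 1751 longest of the tested genes deviated from their group mean by a median of 0.06 log2 units in mutant 2 and 0.05 in control 2, by -0.03 or -0.04 in control 1, mutant 1 and mutant 3, and by less than 0.01 in control 3. The part of sex, gene length or handling of these libraries in the spread was not tested. Without mutant 2, and without control 1, all 7 condensin calls remained. Among libraries with Y-linked transcripts the log2 ratios of the 8 condensin subunits ran from -0.38 (*Ncaph2*) to -1.06 (*Ncapg*), and among those without from -0.35 (*Ncaph2*) to -0.82 (*Smc2*). *Ncapg* was at -0.75 and *Ncaph* at -0.57 in the latter, against -1.06 and -0.74 in the former.

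Per length, *Rad21* was the most abundant of these transcripts and *Ncapg* the least, in both groups. The control FPKM means ran from *Rad21* at 83.6 through *Ncapd2* at 36.6, *Smc1a* at 32.3, *Ncaph2* at 30.9, *Smc3* at 28.7, *Smc4* at 19.4, *Smc2* at 17.1, *Stag2* at 14.4, *Ncaph* at 11.8, *Stag1* at 11.6, *Ncapd3* at 7.43 and *Ncapg2* at 5.70 down to *Ncapg* at 4.32. Neighbours with overlapping control ranges were *Smc1a* with *Ncaph2*, *Ncaph2* with *Smc3*, *Smc2* with *Stag2*, and *Ncaph* with *Stag1*. In the mutants *Ncapd2* (22.1 to 24.6 FPKM) overlapped both *Ncaph2* (23.98 to 24.39) and *Smc1a* (22.3 to 23.6). *Smc2*, at 9.05 FPKM, stood below *Stag2* at 10.7 with overlapping ranges. *Ncapg2* and *Ncapg*, the lowest pair in both groups, were at 2.99 and 2.19 FPKM in the mutants and overlapped there.

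**Figure D2:**
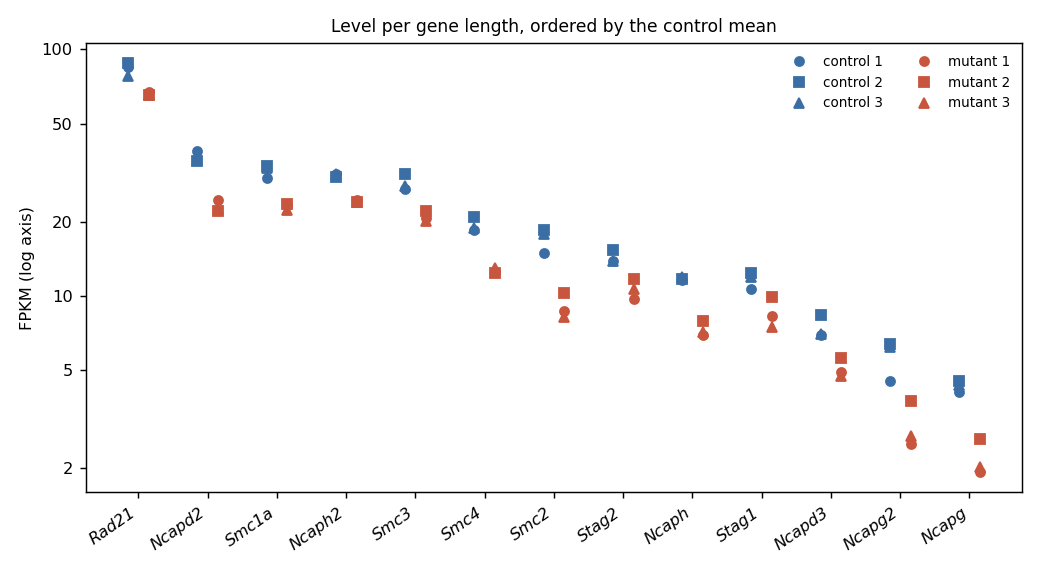
FPKM (log axis) of the 10 subunits and of *Rad21*, *Stag1* and *Stag2* in each of the 3 control (blue) and 3 mutant (red) libraries, ordered by the control mean. The levels run from 83.6 FPKM (*Rad21*) to 4.32 FPKM (*Ncapg*) in the controls, and *Ncapd2*, above *Ncaph2* in every control, overlaps it in the mutants.

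Of 8 factors that load or release cohesin or set its boundaries, 0 were called by edgeR, DESeq2 or limma, and their median log2 fold change was -0.39. An unadjusted edgeR p under 0.05 in the lower direction was reached by 6 of them, against 19.0% of all tested genes. *Ctcf*, which halts loop extrusion at its sites, was lower at an adjusted p under 0.01, with a log2 fold change of -0.34 (adjusted p = 0.00076, edgeR). *Nipbl*, the loader, was at 99.1, 158 and 147 CPM in the controls and at 75.2, 122 and 73.4 CPM in the mutants, which overlap (-0.58 ± 0.21, adjusted p = 0.067, edgeR). Its high libraries were control 2, control 3 and mutant 2, those without Y-linked transcripts, and with that covariate its log2 fold change was -0.38 (adjusted p = 5.5e-05). *Mau2*, the partner of *Nipbl*, had a log2 fold change of -0.02 (adjusted p = 0.81). *Pds5a* (-0.56, adjusted p = 0.014), *Wapl*, which opens the ring (-0.44, 0.017), *Esco1* (-0.43, 0.036) and *Pds5b* (-0.25, 0.12) missed the threshold, and so did *Hdac8* (0.12, 0.46). Without mutant 2, *Nipbl*, *Wapl* and *Pds5a* were called, and without control 1, *Pds5a* was.

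In contrast, 7 of 8 genes that act on cohesin in S phase or mitosis were called lower, against 3.63% of all tested genes. The median log2 fold change of the 8 was -0.77. The largest falls were in *Sgo1* (-1.19), which guards centromeric cohesin, and *Esco2* (-1.17), which acetylates *Smc3* at replication. *Esco2* was at 27.0, 29.6 and 28.4 CPM in the controls and at 12.5, 14.0 and 11.3 CPM in the mutants. *Sgo2a* (-0.90), the protease separase *Espl1* (-0.80), sororin *Cdca5* (-0.75), and the clamp-loader subunits *Dscc1* (-0.61) and *Chtf18* (-0.58) were called as well. Securin, *Pttg1*, which holds separase inactive, was at 18.0 to 22.5 CPM in the controls and 16.1 to 19.0 CPM in the mutants (-0.16, adjusted p = 0.35, edgeR). Only 4 of the 8 were called without control 1, without control 3 or without mutant 3, namely *Esco2*, *Sgo1*, *Sgo2a* and *Espl1*, and 3 with limma on FPKM values.

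Genes that work beside condensin on mitotic chromosomes were also lower, with 8 of 9 called, against 3.63% of all tested genes. The median log2 fold change of the 9 was -0.72, against -0.68 for condensin. *Top2a*, the topoisomerase of the chromosome axis, was at 279, 297 and 286 CPM in the controls and at 177, 180 and 164 CPM in the mutants (-0.72 ± 0.05, adjusted p = 1.5e-05, edgeR). *Mki67*, which coats mitotic chromosomes, fell the most (-1.25 ± 0.17) and varied the most, from 330 to 496 CPM in controls. The kinases *Aurkb* (-0.80), *Plk1* (-0.73) and *Cdk1* (-0.60), its cyclin *Ccnb1* (-0.79), the kinesin *Kif4* (-0.68) and *Mcph1*, an inhibitor of condensin II (-0.55), were called, and *Incenp* (-0.48, adjusted p = 0.00020, edgeR) missed the fold threshold. Relative to the control mean these 9 genes averaged -0.75, -0.67 and -0.78 in mutant 1, 2 and 3, against -0.79, -0.59 and -0.79 for condensin. Among 4 replication markers, *Mcm2* (-0.72), *Mcm6* (-0.82) and *Rrm2* (-0.52) were called and *Pcna* (-0.46) was not.

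The third SMC complex, Smc5/6, which acts in DNA repair, had 0 of 6 genes called by edgeR, DESeq2 or limma. Lower at an unadjusted edgeR p under 0.05 were 4 of them, against 19.0% of all tested genes. *Smc6* (-0.42, adjusted p = 0.0018) and *Nsmce4a* (-0.33, adjusted p = 0.0031) passed the edgeR test without the fold threshold. *Smc5* had the same log2 fold change, -0.42, with overlapping groups (adjusted p = 0.035), and was called without mutant 2. The median over the 6 genes was -0.29. Of the 4 meiotic cohesin subunits, *Smc1b* and *Rad21l* were too low to test with edgeR, where *Rec8* had a log2 fold change of -0.49 (adjusted p = 0.16) and *Stag3* one of 0.24 (adjusted p = 0.46). None of the 4 was called by edgeR, DESeq2 or limma, and 0 had an unadjusted edgeR p under 0.05.

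**Figure D3:**
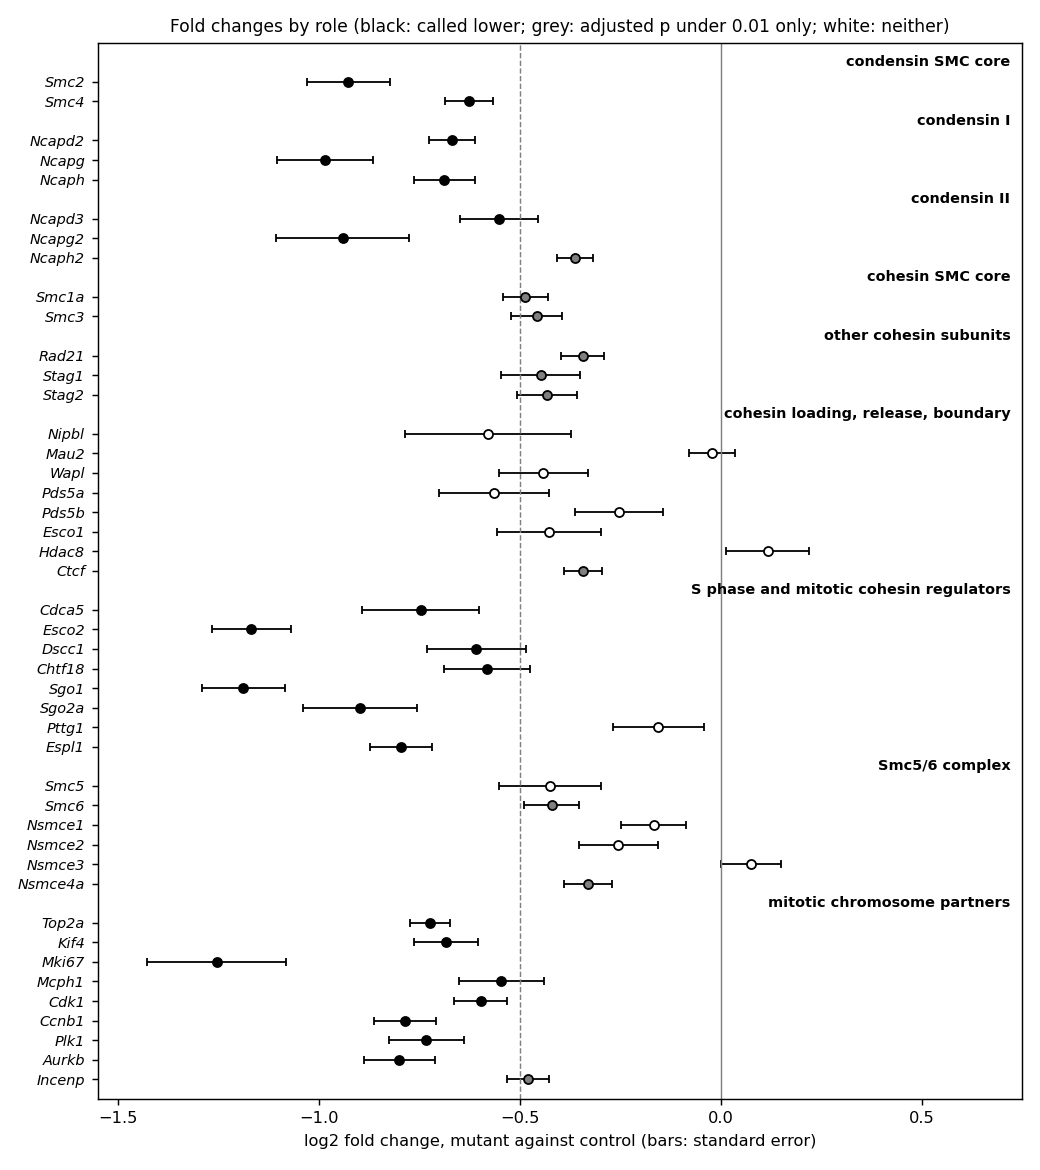
Log2 fold change (mutant against control, edgeR, n = 3 per group) with its standard error for each subunit and for related genes by role, with a dashed line at -0.5. Black points, called lower, hold 7 of 8 condensin subunits, 7 of 8 S phase and mitotic cohesin regulators and 8 of 9 mitotic partners, whereas the 5 cohesin subunits are grey (adjusted p under 0.01 only).

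Markers of the cell types in the tissue shifted along with these genes. Sums of markers in bulk RNA do not separate the number of cells from the RNA per cell. The 6 GNP markers summed to 2596 to 2709 CPM in the controls and 1637 to 1744 CPM in the mutants, with 5 of 6 called lower and *Atoh1* at or below 0.577 CPM in each mutant. All 4 granule neuron markers were lower, from a sum of 1441 to 1488 CPM to one of 696 to 774 CPM. Purkinje cell markers summed to 1475 to 1611 CPM and 2033 to 2525 CPM, with 4 of 6 called higher. In the oligodendrocyte lineage 3 of 4 markers were called higher, whereas *Pdgfra* was lower without overlap (log2 fold change -0.45, adjusted p = 0.00031, edgeR). In astroglia 2 of 5 were called higher, and in meninges 2 of 5, where *Dcn* (-0.05) and *Lum* (-0.16) had the opposite sign. Among GABAergic progenitors and interneurons 2 of 5 were called higher and 1 lower. Over all tested genes 3.03% were called higher and 3.63% lower. Endothelial, erythrocyte, microglial and choroid plexus markers had no gene called (edgeR), and the choroid plexus sum varied most, from 11.3 to 742 CPM among the mutants. The part of this shift in the fall of condensin and cohesin was not tested.

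Beyond the lists, protein-coding genes whose profile over the 6 libraries lay nearest to the condensin mean, out of 10652 genes that averaged 10 CPM or more, included *Unc5b*, *Plxnc1*, *Ccp110* and *Rad18*. Their root mean square differences from it were 0.0499, 0.0553, 0.0570 and 0.0573 log2 units. *Unc5b*, a netrin receptor, was at 55.8, 59.3 and 56.5 CPM in the controls and at 31.6, 36.2 and 32.2 CPM in the mutants. Among the members the same measure ran from 0.0473 for *Ncaph* to 0.266 for *Ncaph2*, farther than *Smc1a* (0.175) and *Smc3* (0.191).

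Promoters were read because many genes of the G2 and M phases carry a CHR element (TTTGAA) near their start, and because the members moved together. RefSeq promoter sequence (GRCm38.p6) was at hand for 9 of the 10 members, all but *Smc4*. The 250 bases before each start were searched on both strands for CHR and for the CCAAT box, spelled as in its name. E2F sites were searched in 3 spellings, of which the first was TTCCCGC, the second, with a double G, was TTGGCGC, and the third, a close variant of the second, was TTCGCGC. E-boxes were searched in the form CAGCTG, which reads the same on both strands, and in the form CAGATG, which does not. CHR was in 4 of 7 condensin promoters and 0 of 2 cohesin promoters, against 16.0% of 32851 promoters of the same length. These 4 are shown, followed by those of *Smc1a* and *Smc3*, each 150 bases 5′ to 3′ on the gene's strand with matches in capitals. The bases shown for *Ncapg2* and *Ncapd2* stop short of the RefSeq start, and the others end at it. Distances are counted from the RefSeq start, and matches outside the bases shown are not printed.
Ncapg, chr5:45669775-45669924, + strand: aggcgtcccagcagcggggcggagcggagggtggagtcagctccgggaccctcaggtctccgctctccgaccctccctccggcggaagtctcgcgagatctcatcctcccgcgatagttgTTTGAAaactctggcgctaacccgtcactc
Ncapg2, chr12:116405276-116405425, + strand: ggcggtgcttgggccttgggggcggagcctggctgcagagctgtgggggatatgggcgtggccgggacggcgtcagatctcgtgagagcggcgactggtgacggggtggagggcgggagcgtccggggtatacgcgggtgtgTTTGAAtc
Ncapd2, chr6:125191678-125191827, - strand: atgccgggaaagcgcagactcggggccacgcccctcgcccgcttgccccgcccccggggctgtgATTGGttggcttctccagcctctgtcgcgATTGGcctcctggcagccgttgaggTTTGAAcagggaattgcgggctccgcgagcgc
Smc2, chr4:52439071-52439220, + strand: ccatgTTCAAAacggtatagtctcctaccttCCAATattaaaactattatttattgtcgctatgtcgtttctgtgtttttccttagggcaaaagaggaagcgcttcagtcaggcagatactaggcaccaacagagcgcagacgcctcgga
Smc1a, chrX:152016278-152016427, + strand: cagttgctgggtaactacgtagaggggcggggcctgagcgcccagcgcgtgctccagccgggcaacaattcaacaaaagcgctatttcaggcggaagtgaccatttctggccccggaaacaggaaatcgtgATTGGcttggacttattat
Smc3, chr19:53600246-53600395, + strand: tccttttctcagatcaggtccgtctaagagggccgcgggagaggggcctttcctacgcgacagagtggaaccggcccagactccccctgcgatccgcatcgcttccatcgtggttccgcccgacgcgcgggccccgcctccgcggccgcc
In *Ncapg* the CHR lay 30 to 25 bases before the RefSeq start and in *Ncapg2* 18 to 13 bases before it. In *Ncapd2* it lay 123 to 118 bases before the start, and in *Smc2* 145 to 140 bases before it on the opposite strand. The annotation of the count table starts *Ncapg2* and *Ncapd2* farther upstream. By those starts the CHR of *Ncapg2* lay inside the gene model and that of *Ncapd2* just before it, whereas the E2F site of *Ncapd2* and 1 of its 3 CCAAT boxes lay inside. CCAAT was in 3 of 7 condensin promoters (*Smc2*, *Ncapd2*, *Ncapg*) and in *Smc1a*, against 33.8% of all promoters. An E2F site was in 3 of 7 (*Ncapd2*, *Ncapd3*, *Ncapg2*) and in neither cohesin promoter, against 6.69%. CAGCTG was in *Ncaph* alone (13.0% of all promoters) and CAGATG in none of the 9 (14.4%). *Ncaph2* and *Smc3* held none of the motifs in the spellings searched, and CHR was searched as TTTGAA alone. Upstream bases of *Ncapd2*, *Ncapd3*, *Ncaph2* and *Smc1a* also hold exon bases of a neighbouring gene, so a match there need not belong to the member alone. A match of letters describes the sequence only and shows no binding.

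**Figure D4:**
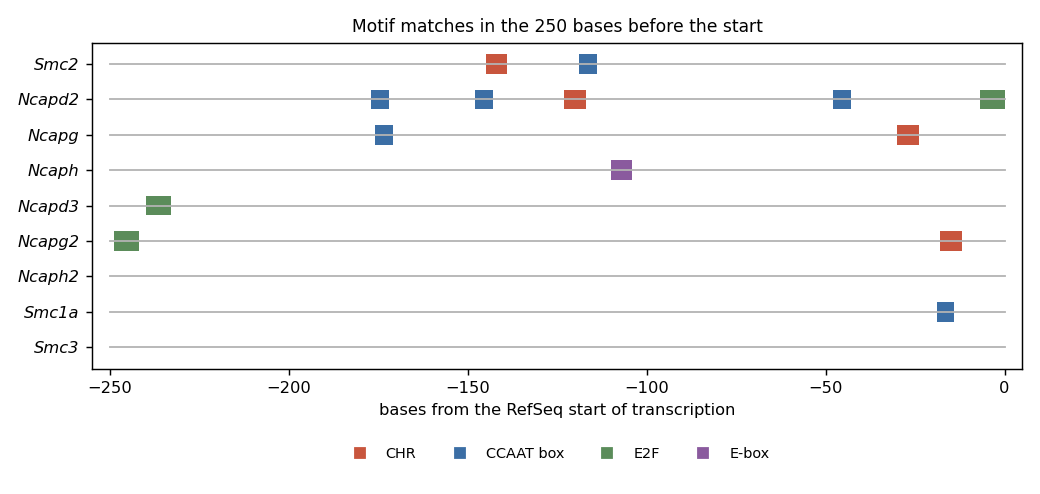
Positions of motif matches in the 250 bases before the RefSeq start of 9 members (horizontal axis in bases from the start), with one colour per motif family. CHR matches appear in *Smc2*, *Ncapd2*, *Ncapg* and *Ncapg2*, and *Ncaph2* and *Smc3* have no match to any spelling searched.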

How the data were processed

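Poly-A RNA of P1 cerebella was measured in 6 libraries, 3 control and 3 mutant, grouped by their labels. Nothing states that a library is 1 animal, so p-values measure the spread between these libraries. The authors aligned reads to mm10 with HISAT2 2.0.5 and deposited counts per gene from featureCounts 1.5.0-p3. The authors also deposited FPKM values, from counts and gene length. Strand setting and the handling of multi-mapped reads are not given in the sources used here.

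Counts were tested with the quasi-likelihood F-test of edgeR 4.0.16 (R 4.3.3) after its filterByExpr filter and TMM scaling, with Benjamini-Hochberg adjustment over 17505 genes, which held 99.8% of counts. A call needed both an adjusted p below 0.01 and a change of more than 0.5 log2 units, the study's thresholds. CPM is a count scaled by the TMM-normalized total. FPKM ratios were compared by exact two-sided permutation (scipy 1.17.1). Library totals were 15391854 to 17178478 and the common dispersion was 0.0105. On simulated counts of this comparison, with 200 genes of at least 10 CPM changed, edgeR recovered 197 with 7 false calls, DESeq2 197 with 7, and limma 185 with 2. Recovery of changes close to the fold threshold of 0.5 log2 units was not tested separately. No library was a copy of another.

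The members, gene lists and tests were chosen with earlier results of these data known. The genes named were the members, *Tox3*, *Atoh1*, all genes of the cohesin, Smc5/6 and mitotic partner lists, sex genes, defining markers and the 5 genes nearest in profile, of which 1 is not reported here. Alternatives were DESeq2 1.42.0, limma 3.58.1 on log2(FPKM + 1) and log2(FPKM + 0.1), other scalings, filters and thresholds, a replicate block, Y-linked genes as a covariate and each library left out. Comparisons within libraries with or without Y-linked transcripts, and scores with 5 cohesin subunits, were added after seeing the data.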

Additional observations from a re-analysis of the deposited data

How the results depend on the processing

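*Smc2*, *Smc4*, *Ncapd2*, *Ncapg* and *Ncaph* were called lower under each of 17 other settings. *Ncapd3* and *Ncapg2* each lost the call under 6, *Smc1a* gained it under 2, and *Smc3* and *Ncaph2* gained it under 1, the removal of the fold threshold. No member changed direction. With limma on log2(FPKM + 1), 370 genes were lower and 252 higher over all genes (635 and 530 with edgeR), 3 S phase and mitotic cohesin regulators were called, and condensin minus cohesin was -0.18. With log2(FPKM + 0.1) the 3 counts were 417, 300 and 3. Without the fold threshold 1268 genes were lower and 1147 higher, with 5 cohesin subunits, 1 loading factor (*Ctcf*) and 2 Smc5/6 genes. At an adjusted p under 0.05, 838 genes were higher and 1 loading factor (*Pds5a*) was called, and with no filter on low counts 2 were (*Nipbl*, *Pds5a*). Condensin minus cohesin was -0.17 among libraries without Y-linked transcripts, an alternative chosen after seeing the data. When each library was left out in turn, condensin calls ranged from 5 to 7, cohesin calls from 0 to 2, S phase and mitotic regulators from 4 to 7, loading factors from 0 to 3, Smc5/6 genes from 0 to 1, lower genes from 492 to 778 and higher genes from 349 (without mutant 3) to 569. The cause of these changes was not tested.

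Whether the replicate numbers pair the libraries was not settled by correlation. Deviations of same-numbered libraries correlated at 0.24, 0.26 and -0.16, and mutant 3 correlated best with control 1 (0.27). Mutant 3 and control 1 both held Y-linked transcripts, whereas control 3 lacked them. Pairing by litter or batch therefore cannot be told from these values. With the replicate block, 696 genes were lower and 561 higher, and 7 condensin subunits, 0 cohesin subunits and 2 loading factors (*Nipbl*, *Pds5a*) were called. With 3 libraries a group, no exact test could go below p = 0.1.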
